A study of Mus musculus with 10 samples.

Results

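The miR-378 family was represented by 5 of the 1892 mature mouse miRNAs on the array, namely mmu-miR-378a-3p, mmu-miR-378a-5p, mmu-miR-378b, mmu-miR-378c and mmu-miR-378d, written below without the species prefix. Members were chosen by the stem of the probe name, with either arm of the hairpin admitted. Each member had 2 spots per array. The T-C cell group held 5 samples, with the source label Col-/-, and the control cell group held 5 samples, with the source label Control Col. All were male mouse samples described as sle liver and grown by a mouse liver cell culture protocol. The treatment label of every sample reads 0.5 mg TN-CF per 100000 T-C cells and dish for 24 hours, alongside a control, while the series design writes TB-CF. Neither TN-CF, T-C, Col nor sle is spelled out in the labels, and treatment and source cannot be told apart. Nothing states that the 5 samples of a group were separate animals or cultures, so each p-value refers to the spread among these samples, and that spread may be technical.

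miRNAs lower the output of messenger RNAs that pair with them, mainly through the seed, bases 2 to 8 of the mature strand. In the mouse, miR-378a is made from an intron of Ppargc1b, the gene of PGC-1β, a coactivator of mitochondrial and fatty acid metabolism. Its 3p strand is known in mice to repress Crat, a carnitine acetyltransferase, and Med13, a Mediator subunit that acts on nuclear receptor targets. The 5p strand is known in human cells to repress partners of PGC-1β such as ERRγ. The family is known as abundant in striated muscle and brown fat and as present in liver.

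RefSeq supplied mature sequences for 3 of the 5 members, and these matched the target sequences of the array. They are shown because miR-378a-3p, miR-378b, miR-378c and miR-378d differ so little that their probes may share signal. These 4 are called 3p-like members below, for their likeness to miR-378a-3p, as the other names give no arm. A further reason is that the few differences fall partly in the seed, which is in capitals.
miR-378b: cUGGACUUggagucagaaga
miR-378c: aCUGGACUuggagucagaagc
miR-378d: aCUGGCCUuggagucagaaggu

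Counted from the 5′ end of miR-378c, miR-378d carried the substitutions A6C, inside the seed, and C21G, and was 1 base longer. miR-378b began 1 base later than miR-378c, so its seed was shifted along the same sequence, and it carried C21A. miR-378a-3p and miR-378c had the same seed and an edit distance of 1 base, whereas miR-378b and miR-378d each lay at an edit distance of 2 from miR-378a-3p. The other arm, miR-378a-5p, was unrelated in sequence, at an edit distance of 13 from miR-378a-3p, which was also the median distance of the 1887 probes outside the family. None of those 1887 probes shared a seed with a 3p-like member, and the closest, miR-7217-5p, lay at an edit distance of 6. That probe had intensities of 135 to 279 on T-C cell arrays and 123 to 227 on control cell arrays and exceeded the detection limit on 4 of 10 arrays.

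On GRCm38.p6 miR-378b lies at chr11:88352839-88352858 on the plus strand, within an intron of Msi2, which is transcribed from the opposite strand. miR-378c lies at chr14:46954905-46954925 on the minus strand, within an intron of Samd4, also transcribed from the opposite strand. miR-378d lies at chr10:126710355-126710376 on the minus strand, outside other genes of GENCODE M21. Within the annotated hairpins, miR-378b lies in the 3′ part of chr11:88352773-88352864. By contrast, miR-378c lies in the 5′ part of chr14:46954830-46954928 and miR-378d in the 5′ part of chr10:126710282-126710391, both on the minus strand. The 5 probes stood next to each other on the array, in rows 4 to 8 of column 7 and again in rows 62 to 66 of column 22.

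The arrays differed in background. The detection limit, the mean of 16 blank spots plus 3 SD, ranged from 133 to 474 intensity units on T-C cell arrays and from 64.0 to 319 on control cell arrays. Between 189 and 668 miRNAs were detected on T-C cell arrays and between 319 and 1314 on control cell arrays. T-C cell replicate 1 lay away from the rest on the first principal component of the 476 tested miRNAs, at −15.8, against −5.10 to −1.34 for the other T-C cell arrays and 1.63 to 8.05 for the control cell arrays. The comparison below is therefore given with and without it. The file headers also number the arrays, with all but 1 T-C cell number above those of the control cell arrays. What these numbers stand for is not stated in the headers or labels, and a drift along them was not tested.

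miR-378a-3p was the brightest member. Its raw intensity, the mean of the 2 spots in scanner units, was 1189, 1833, 1801, 2643 and 1339 in T-C cell replicates 1 to 5, against 2295, 1828, 2346, 2214 and 1976 in control cell replicates 1 to 5. T-C cell replicate 4 was higher than every control cell sample, replicates 1, 3 and 5 were lower than every one, replicate 3 only narrowly, and the groups overlapped. Relative to the detection limit of its array, the lowest ratio was 3.80, on T-C cell replicate 3.

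miR-378b had intensities of 1013, 1444, 1494, 1948 and 911 in T-C cell replicates 1 to 5, against 1719, 1380, 1807, 1547 and 1431 in control cell replicates 1 to 5. miR-378c, the member with the seed of miR-378a-3p, had 924, 1494, 1331, 1993 and 985 in T-C cell replicates, against 1722, 1381, 1854, 1644 and 1421 in control cell replicates. For both, T-C cell replicate 4 was above every control cell sample, replicates 1 and 5 were below every one, and the groups overlapped. T-C cell replicate 3 was also below every control cell sample for miR-378c, but not for miR-378b.

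miR-378d, the member with a substitution in its seed, was dimmer and less even. Its intensities were 840, 953, 467, 1524 and 752 in T-C cell replicates 1 to 5, against 1187, 746, 1280, 1218 and 1211 in control cell replicates 1 to 5. T-C cell replicate 3 lay at the bottom of all 10 arrays and just under that array's detection limit of 474, and control cell replicate 2 stood below the other control cell samples. These were the 2 arrays with the highest blank means, 223 on T-C cell replicate 3 and 227 on control cell replicate 2, while the third highest, 208 on control cell replicate 3, had the highest miR-378d intensity of its group. Whether background played a part was not tested.

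miR-378a-5p, the other arm of the miR-378a hairpin, was the dimmest member. It had 371, 270, 401, 365 and 282 intensity units in T-C cell replicates 1 to 5, against 280, 386, 365, 285 and 230 in control cell replicates 1 to 5. The values of both groups were interleaved. It was below the detection limit on T-C cell replicate 3 and otherwise between 1.21 and 3.60 times the limit, so differences in this arm were measured close to background.

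**Figure D1:**
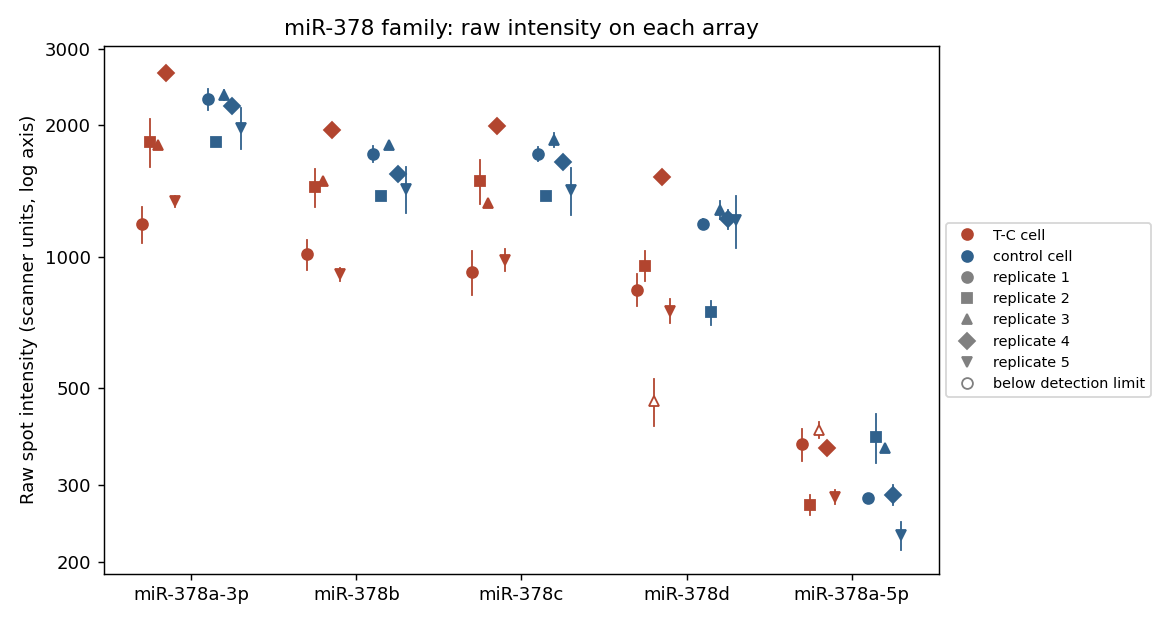
Raw spot intensity in scanner units (log axis) of the 5 family members, T-C cell arrays in red and control cell arrays in blue, with a marker shape for each replicate number, a bar from spot to spot and open symbols below the detection limit. The T-C cell values of miR-378a-3p run from 1189 to 2643 and span the control cell values of 1828 to 2346.

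The 2 spots of a member differed by a median factor of 1.09 and at most 1.31 over the 50 member and array combinations, against a median factor of 1.11 for all tested miRNAs.

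For the comparison of T-C cell with control cell samples, levels were taken as log2(intensity + 50) and normalized between arrays by cyclic loess. All 5 members passed the detection filter, miR-378a-3p, miR-378b and miR-378c on 10 arrays and miR-378d and miR-378a-5p on 9. By limma with Benjamini-Hochberg adjustment over all 476 tested miRNAs, 0 of 5 members passed an adjusted p of 0.05, where 37 of 476 miRNAs, or 7.77%, passed (7 higher, or 1.47%, and 30 lower, or 6.3%). At an unadjusted p of 0.05 also 0 of 5 members passed, against 87 of 476 miRNAs, or 18.3%. The groups did not overlap for 0 of 5 members, against 3.78% of tested miRNAs.

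miR-378a-3p averaged 10.70 ± 0.55 among T-C cell samples and 11.09 ± 0.12 among control cell samples on the normalized log2 scale (SD, n = 5 each). The log2 difference was −0.39 (95% interval −0.90 to 0.12, limma adjusted p = 0.476), an estimate of 0.765 times the control cell level, with an interval from 0.537 to 1.09 times. Of the T-C cell samples, 4 of 5 lay below the control cell median and 2 of 5 below the lowest control cell sample.

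The near-identical miR-378b and miR-378c gave similar values. miR-378b averaged 10.35 ± 0.56 among T-C cell samples and 10.68 ± 0.12 among control cell samples (SD, n = 5 each), a log2 difference of −0.33 (95% interval −0.85 to 0.20, limma adjusted p = 0.603). miR-378c averaged 10.33 ± 0.58 among T-C cell samples and 10.70 ± 0.14 among control cell samples (SD, n = 5 each), a log2 difference of −0.37 (95% interval −0.91 to 0.17, limma adjusted p = 0.539). Because these probes may share signal with miR-378a-3p, they are not separate observations of the family.

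miR-378d had the lowest unadjusted p of the family, at rank 104 of the 476 tested miRNAs. It averaged 9.76 ± 0.49 among T-C cell samples and 10.22 ± 0.29 among control cell samples (SD, n = 5 each), a log2 difference of −0.46 (95% interval −0.98 to 0.06, limma adjusted p = 0.363). All 5 T-C cell samples lay below the control cell median, but control cell replicate 2, at 9.71, was lower than 3 of them. For miR-378a-5p the averages were 8.56 ± 0.18 among T-C cell samples and 8.60 ± 0.15 among control cell samples (SD, n = 5 each). Its log2 difference of −0.04 had an interval of −0.34 to 0.26 (limma adjusted p = 0.930), and its sign turned under several alternatives, which are given in the closing part.

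The median difference was −0.37 over the 5 members, against 0.02 over all 476 tested miRNAs, of which 13.9% were at or below the value of miR-378a-3p. The middle of all differences ran from −0.15 to 0.17 as quartiles. The median SE was 0.24 in the family and 0.19 over all tested miRNAs.

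**Figure D2:**
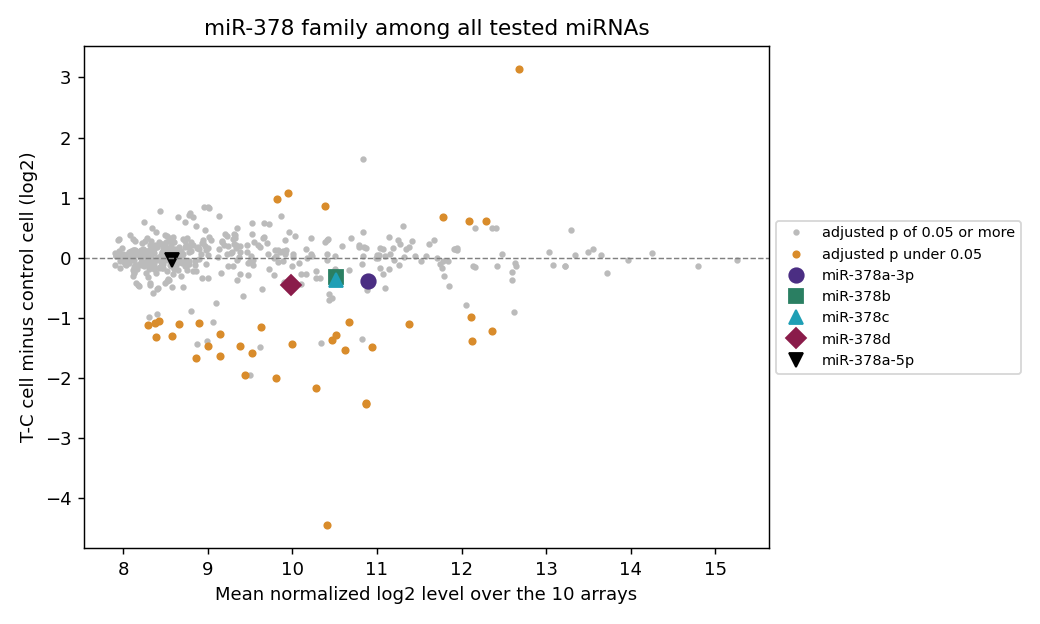
Difference T-C cell minus control cell (log2) against the mean normalized log2 level for each of the 476 tested miRNAs, those with a limma adjusted p under 0.05 in orange and the family in larger symbols. The 3p-like members sit at −0.33 to −0.46, outside the quartiles of all miRNAs but above the miRNAs called lower, and miR-378a-5p sits at −0.04.

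After cyclic loess, a single array carried much of the difference of miR-378a-3p, miR-378b and miR-378c, and less of that of miR-378d. On T-C cell replicate 1 the normalized level of miR-378a-3p was 9.80, against 10.58 to 11.13 on the other T-C cell arrays and 10.96 to 11.22 on the control cell arrays. Without T-C cell replicate 1 the log2 difference was −0.14 for miR-378a-3p (limma adjusted p = 0.739), −0.11 for miR-378b (limma adjusted p = 0.874), −0.13 for miR-378c (limma adjusted p = 0.795) and −0.33 for miR-378d (limma adjusted p = 0.570). Over the other arrays left out in turn, no 3p-like member moved by more than 1.5 times. The differences reached −0.51 for miR-378a-3p without T-C cell replicate 3 and −0.59 for miR-378d without control cell replicate 2. All 4 of the 3p-like members stayed below 0, and none passed, in any of these fits.

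**Figure D3:**
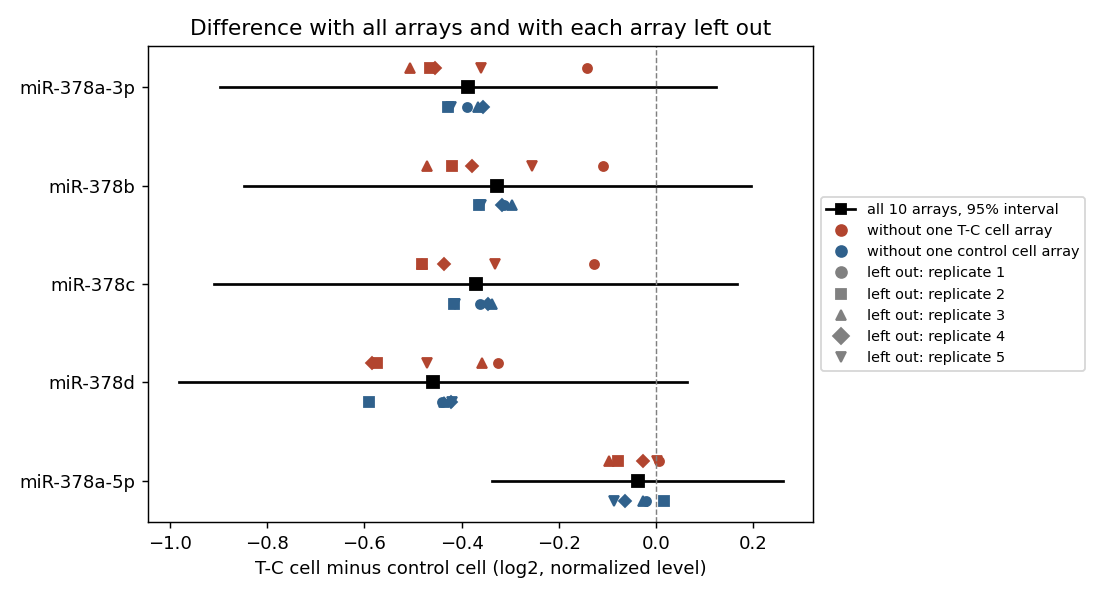
Log2 difference T-C cell minus control cell of each member, with all 10 arrays as a black square and its 95% interval, and with 1 array left out as a red (T-C cell array) or blue (control cell array) symbol whose shape gives the replicate. All 5 intervals include 0, and the red circles, without T-C cell replicate 1, lie nearest to 0 for the 4 3p-like members, at −0.33 to −0.11.

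Without normalization between arrays, the log2 differences were −0.32 for miR-378a-3p, −0.25 for miR-378b, −0.29 for miR-378c and −0.37 for miR-378d, and that of miR-378a-5p was 0.12. In exact two-sided permutation tests over all splits of 5 against 5, the p-values ran from 0.183 to 0.460, and from 0.377 to 0.460 after Benjamini-Hochberg adjustment over the 5 members. The smallest p this design allows is 0.00794. Without T-C cell replicate 4, the array with the highest intensity summed over all miRNAs (1117819, against 806182 to 997710 on the other 9), the unnormalized difference of miR-378a-3p was −0.48 and passed (exact permutation p = 0.00794, adjusted p = 0.0397), a p as small as 4 against 5 samples allow. Other arrays moved the unnormalized values towards 0, to −0.19 for miR-378a-3p and −0.18 for miR-378c without T-C cell replicate 1, to −0.12 for miR-378b without T-C cell replicate 5 and to −0.17 for miR-378d without T-C cell replicate 3. T-C cell replicate 1 stood out less before normalization, with miR-378a-3p at a log2 level of 10.27 there and 10.44 on T-C cell replicate 5. For miR-378d, leaving out T-C cell replicate 1 hardly changed the unnormalized difference, at −0.366 against −0.369 with every array. With cyclic loess, the 9 arrays other than T-C cell replicate 4 gave no call for any member.

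Apart from miR-378b and miR-378c, the members kept 1 order of brightness on all arrays. miR-378a-3p was higher than each other member on 10 of 10 arrays, miR-378b and miR-378c were higher than miR-378d on 10 of 10, and miR-378a-5p was lowest on 10 of 10. miR-378b and miR-378c had no fixed order, with miR-378b higher on 3 of 10 arrays. This is an order of probe brightness, which also depends on how well each probe binds, and not of molecule numbers. In raw intensity miR-378c was 76.4% ± 3.30 of miR-378a-3p among T-C cell samples and 75.2% ± 2.57 among control cell samples, and miR-378d was 52.5% ± 16.4 among T-C cell samples and 52.7% ± 7.50 among control cell samples (SD, n = 5 each). miR-378a-5p stood at 20.6% ± 7.01 of the other arm among T-C cell samples and 14.7% ± 3.90 among control cell samples (SD, n = 5 each). These percentages include background, which weighs most on the dim 5p arm. Over the blank mean, miR-378a-5p averaged 190 intensity units among T-C cell and 168 among control cell samples, against 1613 and 1991 for miR-378a-3p.

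Whether members moved unequally was tested on their log2 difference within each array, for all 10 pairs of members. No pair passed (0 of 10 by exact two-sided permutation with Benjamini-Hochberg adjustment, and 0 of 10 at an unadjusted p of 0.05). The 3p minus 5p difference of miR-378a was 2.14 ± 0.43 among T-C cell samples and 2.49 ± 0.20 among control cell samples (SD, n = 5 each), a change of −0.35 (exact permutation p = 0.111, adjusted p = 0.456), or −0.15 with T-C cell replicate 1 left out (adjusted p = 0.804). Between miR-378a-3p and miR-378c, which differ least in sequence, the difference was 0.37 ± 0.08 among T-C cell samples and 0.39 ± 0.04 among control cell samples (SD, n = 5 each), a change of −0.02 (exact permutation p = 0.762, adjusted p = 0.873). Between miR-378a-3p and miR-378d it was 0.94 ± 0.49 among T-C cell samples and 0.87 ± 0.24 among control cell samples (SD, n = 5 each), a change of 0.07 (exact permutation p = 0.873, adjusted p = 0.873). That change was −0.15 without T-C cell replicate 3, where miR-378d stood 1.80 below miR-378a-3p.

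**Figure D4:**
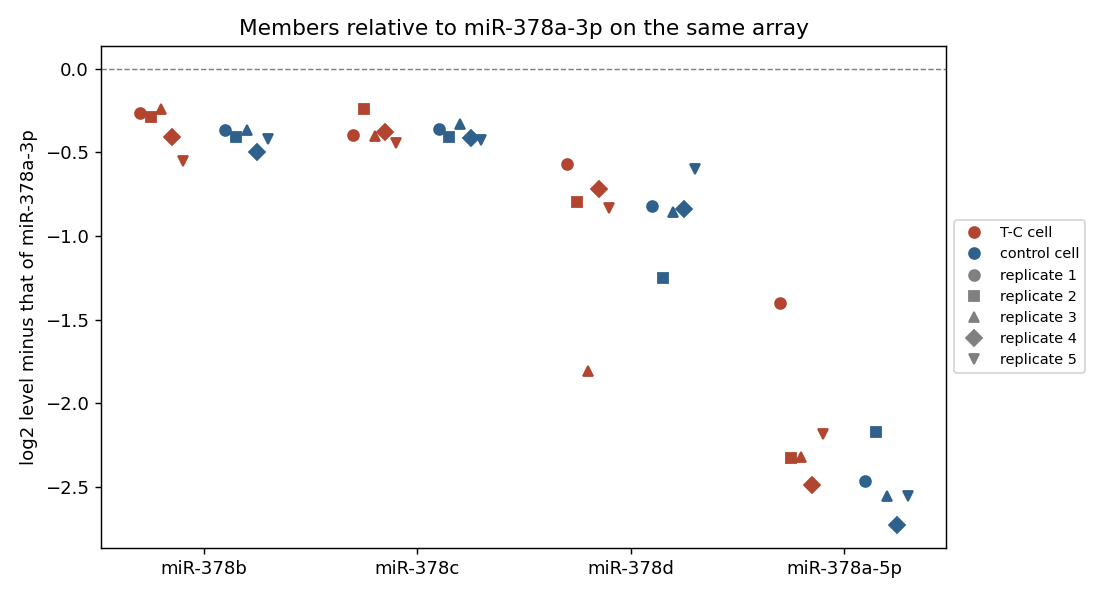
Normalized log2 level of each other member minus that of miR-378a-3p on the same array, T-C cell arrays in red on the left and control cell arrays in blue on the right, with a marker shape for each replicate number. miR-378b and miR-378c keep within −0.55 to −0.24 on every array, whereas miR-378d drops to −1.80 on T-C cell replicate 3 and −1.25 on control cell replicate 2.

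Across the 10 arrays the level of miR-378a-3p went with that of miR-378c (Pearson r = 0.99, Spearman rho = 0.89) and of miR-378b (r = 0.97, rho = 0.89), less with miR-378d (r = 0.65, rho = 0.59) and with miR-378a-5p (r = 0.54, rho = 0.42). These are descriptions over arrays that share groups and normalization. With the 2 arrays farthest from the median of miR-378a-3p left out, T-C cell replicates 1 and 5, r was 0.85 for miR-378c and 0.76 for miR-378b but 0.10 for miR-378d and −0.0030 for miR-378a-5p. These values are a description, since the arrays left out are those where miR-378a-3p was most extreme.

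Outside the family, the 5 of 471 tested miRNAs with the pattern closest to miR-378a-3p over the 10 arrays were miR-24-2-5p (r = 0.93), miR-22-5p (r = 0.92), miR-221-3p (r = 0.89), miR-29b-3p (r = 0.87) and miR-222-3p (r = 0.87). Spearman's rho was lower, between 0.55 and 0.73. miR-221 and miR-222 are made from one transcript and are known for promoting growth, and miR-29b is known for repressing collagen genes. All 5 had their lowest level on T-C cell replicate 1. With T-C cell replicates 1 and 5 left out, their r was between 0.15 and 0.45, as a description, since these miRNAs were picked for their r over all 10 arrays and the arrays left out are those where miR-378a-3p was most extreme. Their own log2 differences ran from −0.88 for miR-29b-3p (limma adjusted p = 0.0932) to −0.07 for miR-221-3p (limma adjusted p = 0.933), and none passed.

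**Figure D5:**
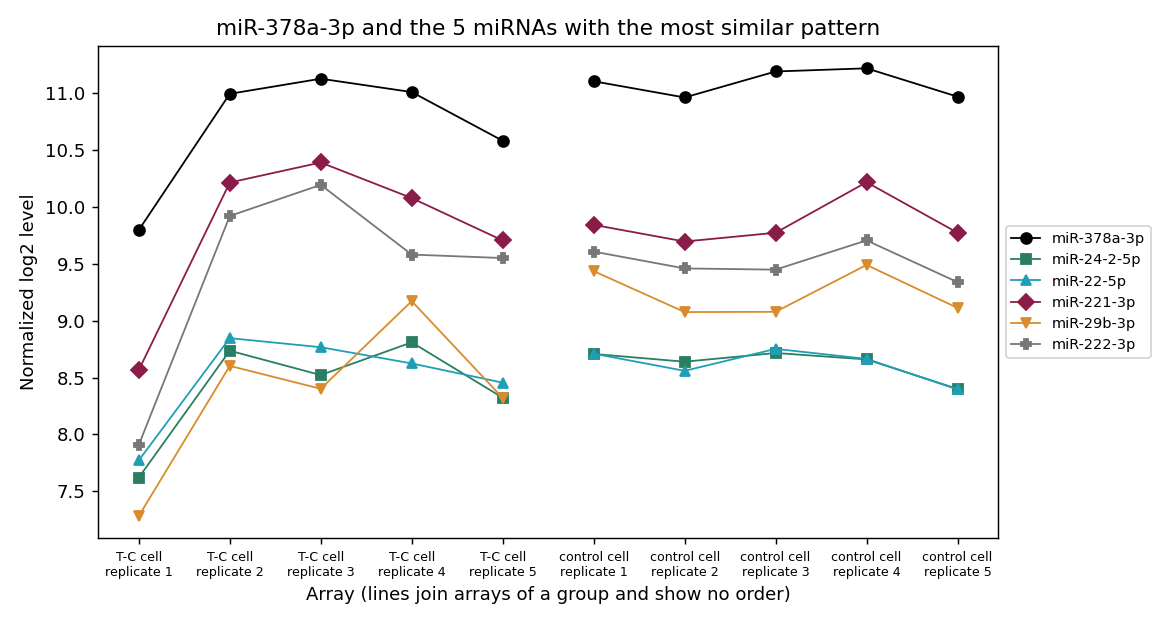
Normalized log2 level on each array, T-C cell arrays on the left and control cell arrays on the right, for miR-378a-3p (black) and the 5 miRNAs outside the family with the highest Pearson r to it. All 6 are lowest on T-C cell replicate 1, where miR-378a-3p is at 9.80.

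Of 24 miRNAs listed for roles in lipid, glucose or mitochondrial metabolism, 15 were tested, of which 0 were higher, 1 was lower and 14 did not pass, a share near the 6.3% of all tested miRNAs that were lower. The one that fell was miR-29a-3p, also known for repressing collagen genes, with a log2 difference of −4.45 (limma adjusted p = 3.74e-08), and it passed under all 24 alternatives. The brightest others were miR-143-3p, at 13.95 ± 0.32 in T-C cell samples with a difference of −0.04, miR-26a-5p with 0.04 and miR-30c-5p with 0.07 (limma adjusted p from 0.875 to 0.930). The median difference of the 15 was −0.11, against 0.02 over all tested miRNAs. The other 9, among them both strands of miR-33, the cholesterol miRNA encoded within Srebf2, were below the detection filter.

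miRNAs that mark striated muscle, where the family is abundant, were also looked at. Of 7 listed, 4 were tested and 0 passed, where 7.77% of all tested miRNAs passed. miR-133a-3p had a log2 difference of −0.67 (limma adjusted p = 0.119) and miR-133b-3p one of −0.70 (limma adjusted p = 0.0813), while miR-1a-3p had 0.25 (limma adjusted p = 0.712). The other strand of miR-133b, miR-133b-5p, was not on the list and was called higher, with a difference of 3.14 (limma adjusted p = 0.0419). Its 95% interval was wide, at 1.34 to 4.95, with SDs of 1.23 among T-C cell and 1.88 among control cell samples. The groups overlapped, with 3 of 5 T-C cell samples above the highest control cell sample. The summed raw intensity of the 7 was 3163 to 4561 on T-C cell arrays and 4070 to 5230 on control cell arrays, and miR-208a-3p, miR-208b-3p and miR-499-5p were detected on 0 of 10 arrays. In RNA from whole samples, fewer cells of a type and less of a miRNA per cell cannot be told apart, and the part of muscle miRNAs in the miR-378 values was not tested. Of 5 brown fat miRNAs, 4 were tested and 0 passed, with miR-455-3p at 0.06, miR-365-3p at 0.07 and miR-196a-5p at −0.04, and their summed intensity was 1228 to 1832 on T-C cell and 943 to 1764 on control cell arrays.

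The labelled liver origin was checked against miR-122-5p, the defining miRNA of hepatocytes. Its intensity was 101 to 193 on T-C cell arrays and 57.8 to 178 on control cell arrays, and it exceeded the detection limit on 1 of 5 T-C cell arrays and 0 of 5 control cell arrays. Of the 8 hepatocyte miRNAs listed, 7 were on the array and 5 were tested. None of the 5 passed, with miR-194-5p at 0.10, miR-192-5p at 0.47 and miR-148a-3p at −0.27. The summed intensity of the 7 was 20730 to 35858 on T-C cell and 22528 to 34849 on control cell arrays. The brightest were miR-194-5p and miR-192-5p, at mean log2 levels of 13.50 and 13.29, against 11.07 for miR-148a-3p. The sum came mostly from this pair, so it cannot stand in for miR-122-5p, which stayed near background. The labelled liver origin was therefore not borne out by miR-122-5p, and which cells the samples held was not tested. miR-802-5p, like miR-122-5p, exceeded the detection limit on 1 of 10 arrays. Of 8 haematopoietic miRNAs, 7 were tested and miR-150-5p rose by 0.86 (limma adjusted p = 0.0433), a call that ended under 14 of 24 alternatives (limma adjusted p from 0.0223 to 0.876), with miR-451a at 0.30, miR-342-3p at 0.38 and miR-223-3p at 0.29 not passing, and a summed intensity of 3793 to 7629 on T-C cell and 2985 to 4005 on control cell arrays. Of 9 endothelial and mesenchymal miRNAs, 8 were tested and 0 passed, with miR-145a-5p at 0.08, miR-143-3p at −0.04 and miR-126a-3p at −0.01. The summed intensity of the 9 was 34396 to 63812 on T-C cell and 41544 to 49757 on control cell arrays. Of all tested miRNAs 7.77% passed and 1.47% were higher. In marker lists this short, 0 or 1 call cannot be told from these shares.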

How the data were processed

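RNA of 10 mouse samples was profiled on one-colour arrays by LC Sciences, and per the labels 1 µg of total RNA received a poly(A) tail and a Cy3-stained tag. The authors deposited the median intensity of each spot, a linear scanner brightness not scaled between arrays, per the file headers. The labels and headers name no scanner, software or miRBase version. Intensities became log2(intensity + 50), spot pairs were averaged, and cyclic loess made the arrays comparable (limma 3.58.1, R 4.3.3). A miRNA was tested if its mean intensity lay more than 3 SD above the average of 16 blank spots on at least 5 of 10 arrays. Groups came from the sample titles and were compared with limma (eBayes with a trend, two-sided, Benjamini-Hochberg over 476 miRNAs); each difference is T-C cell minus control cell, with a 95% interval. Pairs of members and unnormalized levels were compared by exact permutation. Edit distances count substitutions, insertions and deletions. Named miRNAs were the members, close probes, the 5 nearest patterns, miR-122-5p and, per list, those called and up to 3 others by mean level. Also named were miR-133b-5p, the other strand of a listed miRNA, and some list members that were not tested. The members and lists were chosen with earlier results of these data known. Sequences and positions are from RefSeq on GRCm38.p6, and overlapping genes from GENCODE M21 on GRCm38. The fit and the permutation test were checked on simulated data. The number of arrays limits the precision. Alternatives covered normalization, offset, spots, filter, model and arrays left out.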

Additional observations from a re-analysis of the deposited data

Results flagged for a closer look

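Of 30 sets of 5 samples examined (5 member levels and 10 differences between members, in each group), 5 held a sample far from the other 4. Chance gives this in about 1 of 20 sets, and the sets share members and arrays. On T-C cell replicate 1 the log2 level of miR-378a-3p minus that of miR-378a-5p was 1.40, against 2.18 to 2.49 on the other T-C cell arrays. On T-C cell replicate 3 miR-378a-3p minus miR-378d was 1.80, against 0.57 to 0.84 on the others, and miR-378b minus miR-378d was 1.57, against 0.29 to 0.51. On control cell replicate 2 the log2 level of miR-378d was 9.71, against 10.29 to 10.38 on the other control cell arrays. On the same array miR-378a-5p minus miR-378b was −1.77, against −2.23 to −2.10.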

How the results depend on the processing

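The 4 3p-like members stayed below 0 and above a limma adjusted p of 0.05 under all 24 alternatives. Their log2 differences ran from −0.51 to −0.14 for miR-378a-3p, −0.47 to −0.10 for miR-378b, −0.48 to −0.13 for miR-378c and −0.59 to −0.29 for miR-378d. miR-378a-5p did not pass either, but its sign turned with quantile normalization (0.038), median centring (0.011), no normalization (0.12) and the second spot only (0.0031), and leaving out 1 array gave −0.096 to 0.018. Between miR-378a-3p and miR-378c the sign turned after subtraction of blanks, floored at 1 (0.0039), and with the first spot only (0.013), and arrays left out gave −0.029 to 0.016. Arrays left out gave −0.15 to 0.18 between miR-378a-3p and miR-378d, −0.11 to 0.23 between miR-378b and miR-378d and −0.12 to 0.20 between miR-378c and miR-378d. No pair of members passed under any alternative. Unnormalized, 0 to 1 members passed with arrays left out.

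Over all tested miRNAs, the numbers higher and lower were 7 and 30. They were 14 higher with quantile normalization, 1 and 13 with median centring, 3 higher without normalization, 2 and 1 after blank subtraction, 0 and 1 with all miRNAs tested, and 0 and 1 without T-C cell replicate 1 and control cell replicate 5 together. With 1 array left out they ran from 0 to 8 and from 1 to 36. The cause was not tested. The metabolic list kept 1 call throughout. Of the 5 nearest patterns, 3 remained among the nearest 5 with quantile normalization, 2 with median centring, 1 without normalization, 2 with blanks subtracted, 3 with the first spot, 2 with the second, 2 with all miRNAs tested, 1 without T-C cell replicate 1 and control cell replicate 5 together, and 0 to 5 with 1 array left out.

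With the replicate number as a block, 4 were higher and 18 lower, and no member passed (miR-378a-3p adjusted p = 0.474). Same-numbered arrays deviated from their group means with r from −0.20 to 0.26, and 1 of 5 T-C cell arrays correlated best with its own number. With only 5 arrays a group, these values cannot decide whether the numbers pair the samples. With 5 arrays a group, and miR-378a-5p near background, each member's interval held both lower and higher levels in T-C cell samples. No direction was therefore settled for any member.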

Other observations

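The spread of miR-378a-3p, miR-378b and miR-378c, whose probes may share signal, differed between groups, as a description without a test. The SD of the normalized log2 level of miR-378a-3p was 0.55 among T-C cell samples and 0.12 among control cell samples, a ratio of 4.55, and 4.41% of tested miRNAs had a higher ratio. The ratio was 4.67 for miR-378b, 3.99 for miR-378c, 1.71 for miR-378d and 1.22 for miR-378a-5p, against a median of 1.59 over all tested miRNAs. In that order, 3.78%, 6.30%, 46.4% and 67.6% of tested miRNAs had a higher ratio. Before normalization the SDs of miR-378a-3p lay closer together, at 0.44 among T-C cell and 0.15 among control cell samples. Without T-C cell replicate 1 the T-C cell SD of miR-378a-3p was 0.24.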
